A study of Homo sapiens with 8 samples.

Results

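L-histidinol is an alcohol analogue of histidine that competes with histidine for histidyl-tRNA synthetase, so that treated cells behave as if starved of that amino acid. Uncharged tRNA activates the kinase GCN2, which phosphorylates the translation initiation factor eIF2 and favours translation of the transcription factor ATF4. ATF4 and its C/EBP partners then switch on amino acid synthesis, amino acid transporters and tRNA synthetases, a programme known as the amino acid response. The transcripts described here are those that moved with L-histidinol beyond that programme, meaning outside a list of 66 of its genes. A gene outside the list may still belong to the programme, which was not tested. For every gene, 4 arrays with L-histidinol were paired with 4 arrays without it by drug treatment, and the gene was kept when its log2 difference had the same sign in all 4 pairs. The rule kept 7401 of 19775 genes, 3874 higher and 3527 lower with L-histidinol.

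The cells were NCI-H1975, a human lung adenocarcinoma line driven by a mutant EGF receptor that osimertinib inhibits. Alpelisib inhibits the alpha isoform of phosphoinositide 3-kinase. RNA was measured on 8 short-oligonucleotide arrays, 1 for each condition, after 24 h. The 4 conditions with L-histidinol, all at 2 mM, were L-histidinol alone, with 10 nM osimertinib, with 1 µM alpelisib, and with both drugs at those doses. The 4 conditions without it were vehicle (DMSO), 10 nM osimertinib, 1 µM alpelisib, and both drugs. All values below follow that order of drug backgrounds: vehicle, osimertinib, alpelisib, both. Since each condition was 1 array of 1 cell line, the spread behind every test was the disagreement between drug backgrounds, and a difference in L-histidinol response between backgrounds had no replicate. An exact permutation test over 4 pairs could not fall below a two-sided p of 0.125, so genes were tested in 1 limma model over all genes, with drug background as a term.

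In that model 2224 genes were kept and called higher with L-histidinol at a Benjamini-Hochberg adjusted p below 0.05, which is 11.2% of all genes tested. Kept and called lower were 1751 genes, or 8.85%. These shares are the background over all genes, dim ones included. Among the 11627 genes with a mean of at least 5 log2 units, 18% were called higher and 13.6% lower. For a list of brighter genes those larger shares are the closer background, and a list count near them does not stand out. The median fitted difference over all genes was -0.01 on the log2 scale. Among the called and kept genes outside the amino acid response, 21 were at least 2-fold higher and 11 at least 2-fold lower. The calls rested on taking the drug background out: without that term 58 genes were called. The rule's edge ran through near-zero differences. MRPL17, just inside, had differences of -0.34, -0.13, -0.33 and -0.0005, and LINC03026, just outside, had -0.56, -0.31, -0.80 and a last difference of 0.0 after rounding.

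Epithelial identity was checked on 10 markers of a lung epithelial line, of which 5 were called lower with L-histidinol and 1, EGFR, higher, with a median of -0.15 log2 units. EGFR rose 1.30-fold on 1 of its 9 probe sets, and on their mean its difference was -0.003. The adhesion protein EPCAM averaged 12.20 log2 units with L-histidinol and 12.10 without, KRT7 averaged 13.07 with and 13.06 without, and they ranked above 99.3% and 99.8% of genes. The keratins called lower stayed bright: KRT8 averaged 11.68 with L-histidinol and 11.96 without, KRT19 11.56 with and 11.93 without, a call that ended on the mean of its probe sets. KRT18 and NKX2-1, also called lower, are described with the lineage genes below. NAPSA, a lung adenocarcinoma marker, was dim at 5.52 log2 units with L-histidinol and 5.67 without. Of 12 markers of blood, stromal and endothelial cells 11 were measured and none was called by limma, and their summed intensity was 237.5 to 268.5 with L-histidinol and 242.9 to 274.5 without. The 3'/5' probe signal ratio of ACTB, a measure of RNA or labelling quality, was 1.10 to 1.15 with L-histidinol and 1.04 to 1.07 without, and the ranges did not overlap. For GAPDH the ratio was 0.966 to 0.982 with L-histidinol and 0.978 to 1.01 without. L-histidinol and this shift in the ACTB ratio cannot be told apart on these arrays, and its part in the differences below was not tested.

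The amino acid response itself served as a reference. Of its 64 measured members 58 were called higher, against 11.2% of all genes, and 1 lower, and the same number of rises was called with any 1 pair left out. ATF4 stood at 11.76, 11.72, 11.65 and 11.80 log2 units with L-histidinol, against 10.73, 10.88, 10.80 and 11.26 without. HARS1, which encodes the synthetase that L-histidinol occupies, read 9.68, 9.12, 9.38 and 8.91 with L-histidinol and 9.79, 9.29, 9.47 and 8.86 without, and it was not called (limma adjusted p = 0.29). Of 18 genes for histidine handling 2 were called higher (11.1%, against 11.2% of all genes), AMDHD1 by 0.45 and CNDP2 by 0.36 log2 units. AMDHD1, an enzyme of histidine breakdown, lost its call when the alpelisib or the osimertinib pair was left out, and the carnosine dipeptidase CNDP2 lost it on the mean of its probe sets.

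The C/EBP-ATF composite element through which ATF4 acts was then searched for as TGATGNAA on both strands in the 250 bases before each RefSeq gene start (GRCh38.p14), a window available for 15384 genes. It was present in 10 of 51 windows of amino acid response genes (19.6%), in 33 of 1802 windows of other genes called higher (1.83%) and in 2.31% of all windows. The stretches below show the element, in capitals, before ASNS, before KLHDC7B (a kelch domain protein) and before HRK (a BH3-only cell death activator). All are written 5′ to 3′ in the direction of the gene, and they lie at chr7:97872443-97872502 on the minus strand, chr22:50545722-50545781 on the plus strand and chr12:116881483-116881542 on the minus strand.
ASNS: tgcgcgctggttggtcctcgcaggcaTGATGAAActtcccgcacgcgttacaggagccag
KLHDC7B: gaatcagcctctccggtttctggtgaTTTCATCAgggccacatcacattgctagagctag
HRK: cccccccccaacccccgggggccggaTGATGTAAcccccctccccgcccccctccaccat
KLHDC7B carried the element on the opposite strand. KLHDC7B read 6.41, 7.66, 5.46 and 7.14 log2 units with L-histidinol and 4.55, 5.61, 4.47 and 5.80 without, a 2.95-fold rise (limma adjusted p = 5.5e-05) in which the highest array without overlapped the lowest with. HRK read 5.26, 5.69, 5.53 and 6.12 with L-histidinol and 4.59, 5.20, 4.76 and 5.56 without, a 1.54-fold rise (limma adjusted p = 0.00038). A match is a description of letters in a window, not a binding site.

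**Figure D1:**
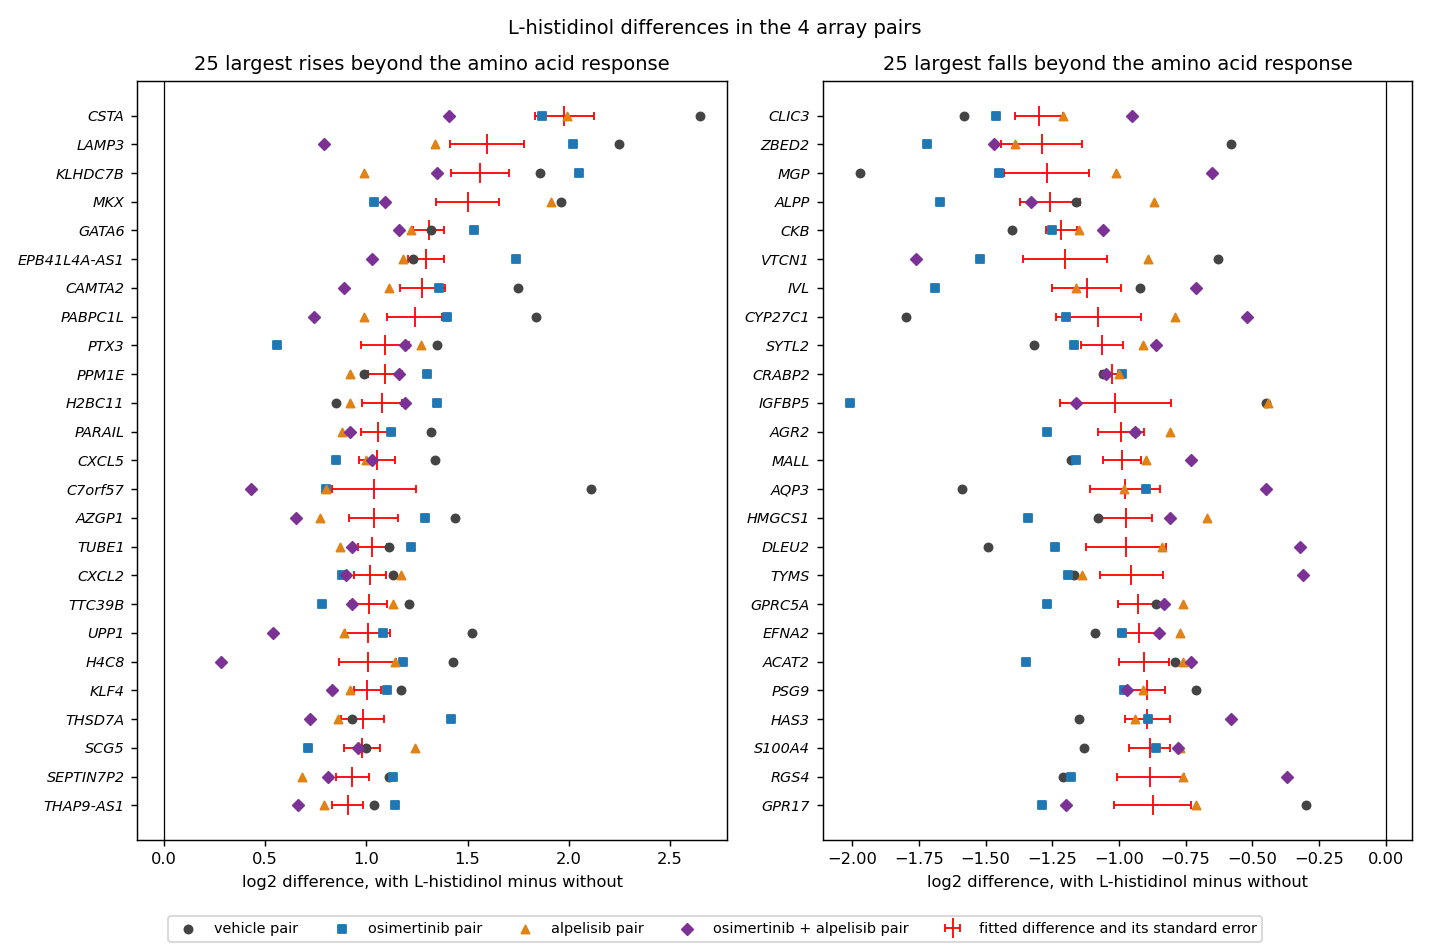
Log2 difference, with L-histidinol minus without, in each of the 4 array pairs (symbols) and as fitted with its standard error (red) for the 25 largest rises and 25 largest falls outside the amino acid response. All points of a gene lie on 1 side of 0, as the rule requires; the osimertinib + alpelisib pair often lies nearest to 0, as for LAMP3 (0.79 against 2.25 in vehicle) and MGP (-0.65 against -1.97).

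The largest rise outside the amino acid response belonged to CSTA, which encodes cystatin A, an inhibitor of cysteine proteases. It read 7.97, 7.70, 7.62 and 7.26 log2 units with L-histidinol, against 5.32, 5.83, 5.64 and 5.85 without, so the groups did not overlap. The fitted change was 3.94-fold (SE 0.15 on the log2 scale, limma adjusted p = 1.7e-05). CAMTA2, a calmodulin-binding transcription activator, followed the same form. It stood at 8.60, 8.58, 8.12 and 8.24 with L-histidinol and 6.85, 7.22, 7.01 and 7.35 without, a 2.42-fold rise. PPM1E, a protein phosphatase, read 6.11, 6.21, 5.84 and 6.32 with L-histidinol and 5.12, 4.91, 4.93 and 5.16 without, a 2.13-fold rise with no overlap. PABPC1L, a poly(A)-binding protein relative, read 8.79, 8.59, 8.54 and 8.26 with and 6.95, 7.19, 7.55 and 7.52 without, and rose 2.36-fold on this probe set, 1 of its 3. These 4 genes and GATA6 were among the 58 called even when the drug background was left in the error. MKX, a homeobox factor of tendon, rose 2.83-fold but from dim levels, with 3.32 to 4.04 log2 units with L-histidinol and 1.82 to 2.29 without. UPP1, the phosphorylase that cleaves uridine, rose 2.01-fold and read 12.43, 11.54, 11.87 and 11.04 with L-histidinol, against 10.91, 10.46, 10.99 and 10.50 without.

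Transcripts that host small nucleolar RNAs had the largest share called higher of the 47 lists beyond the amino acid response. Small nucleolar RNAs guide the modification of ribosomal RNA and are cut from the introns of these hosts, several of which are known as substrates, once spliced, of nonsense-mediated decay, a surveillance pathway coupled to translation. Of 8 measured hosts 5 were called higher and none lower, with a median of 0.48 log2 units, and the same count held with any 1 pair left out. EPB41L4A-AS1 read 9.55, 10.37, 9.95 and 10.42 log2 units with L-histidinol and 8.32, 8.64, 8.76 and 9.39 without. Its 2.45-fold rise (limma adjusted p = 1.1e-05) separated the groups. SNHG32 read 11.37, 11.52, 11.15 and 11.12 with L-histidinol, against 10.32, 10.37, 10.38 and 10.49 without. It rose 1.86-fold and the arrays with L-histidinol all lay above those without. SNHG17 rose 1.70-fold, ZFAS1 1.43-fold and TAF1D, whose gene also encodes a subunit of the RNA polymerase I selectivity factor, 1.36-fold. Of the factors of nonsense-mediated decay 1 of 8 was called, RBM8A at 1.21-fold, and that call was lost on the mean of its probe sets.

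Noncoding RNAs were set beside protein-coding genes. Over all 2658 long noncoding RNAs 5.46% were called higher and 2.63% lower, against 12.3% and 10.1% of 16517 protein-coding genes. Many noncoding RNAs were dim. Among genes with a mean of at least 5 log2 units, 110 of 478 long noncoding RNAs were called higher (23.0%) and 35 lower (7.32%). That mean was over all 8 arrays, so a gene could pass or miss the cut through its level with L-histidinol. Transcribed pseudogenes gave 31 of 142 higher (21.8%) and 9 lower (6.34%). Protein-coding genes past the same cut gave 1947 of 10966 higher (17.8%) and 1540 lower (14%). The split was drawn up after the values were seen and carries no test. THAP9-AS1 read 9.07, 8.74, 8.60 and 8.16 log2 units with L-histidinol and 8.03, 7.59, 7.81 and 7.51 without, a 1.88-fold rise. PARAIL rose 2.08-fold and the pseudogene SEPTIN7P2 1.91-fold.

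**Figure D2:**
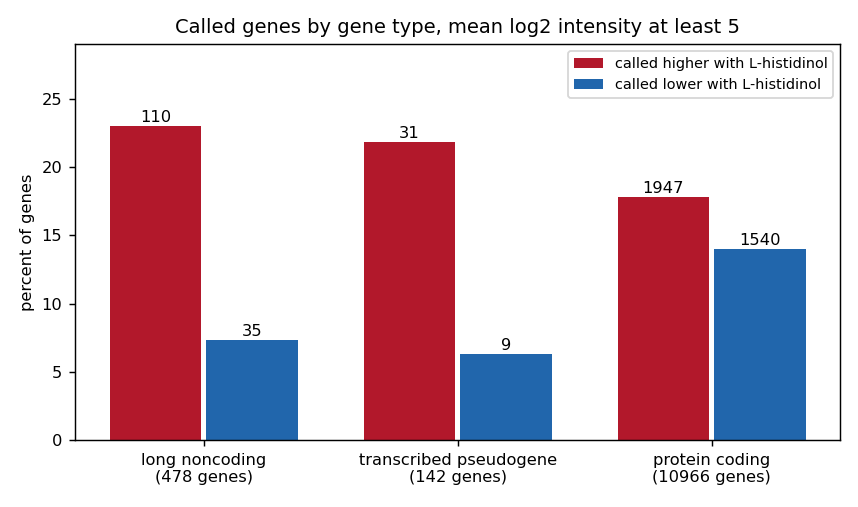
Percent of genes called and kept, higher (left bar) and lower (right bar) with L-histidinol, for 3 gene types with a mean of at least 5 log2 units; the number above a bar is its count of genes. Long noncoding RNAs have 23.0% higher and 7.32% lower, protein-coding genes 17.8% and 14%. Without the cut the shares are 5.46% and 2.63% for long noncoding RNAs, and 12.3% and 10.1% for protein-coding genes.

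Genes of translation and ribosome assembly were called in part, by small amounts. MYC, a driver of ribosome production, stood at 11.41, 10.82, 11.39 and 10.90 log2 units with L-histidinol and 10.89, 10.19, 10.90 and 10.16 without. It rose 1.51-fold (limma adjusted p = 2.3e-05), by 0.49 to 0.74 in each pair. With or without L-histidinol, its level was lower on the arrays with osimertinib than on those without osimertinib. POLR1B, a subunit of RNA polymerase I, rose 1.30-fold, and in all 5 of 20 ribosome biogenesis genes were called higher and none lower, although the list's median in vehicle was -0.14 log2 units. Without the osimertinib pair 3 of them were called, and with a constant variance prior 2. Of 31 translation factors 9 rose and 3 fell, though none was called lower without the osimertinib pair. EIF4B, a helper of the eIF4A helicase, read 11.21, 11.27, 11.23 and 11.17 with L-histidinol and 10.90, 10.85, 10.86 and 10.93 without, and rose 1.26-fold. EIF1, the start-codon selection factor, rose 1.22-fold and EIF3A 1.24-fold. The alpha subunit of eIF2 itself, EIF2S1, rose 1.22-fold. Cytosolic ribosomal protein genes had 8 of 34 called higher, none lower and a median of 0.07 log2 units. That count fell to 2 without the alpelisib pair, 3 without the osimertinib pair and 1 with a constant variance prior.

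Of 27 cytokine and chemokine genes 8 were called higher and none lower, and 5 without the alpelisib pair. The list's medians by pair were 0.06, -0.01, 0.20 and 0.07 log2 units. CXCL5 attracts neutrophils. CXCL5 read 6.98, 5.76, 6.12 and 5.52 log2 units with L-histidinol and 5.64, 4.91, 5.12 and 4.49 without. It rose 2.07-fold (limma adjusted p = 3.6e-05), although drug treatment moved the level enough for the groups to overlap. CXCL2 rose 2.03-fold on 1 of its 3 probe sets and lost its call when probe sets with an _x_at name, which can match several genes, were left out. ICAM1, the adhesion receptor for leukocyte integrins, read 7.37, 7.20, 7.31 and 7.25 with L-histidinol and 6.67, 6.88, 6.70 and 6.94 without, a 1.40-fold rise with no overlap. IL6, a cytokine of acute inflammation, rose 1.65-fold, with differences of 0.13, 0.52, 0.83 and 1.41 log2 units. The pattern recognition pentraxin PTX3 rose 2.13-fold and read 6.98, 3.85, 6.29 and 4.75 with L-histidinol, against 5.63, 3.29, 5.02 and 3.55 without.

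Interferon-stimulated genes gave 18 called higher and 1 lower of 33, with a median of 0.26 log2 units. Their medians by pair were 0.45, 0.35, 0.17 and 0.07, and the smallest was that under both drugs. Without the osimertinib pair 8 were called higher. IFI44L read 8.18, 8.76, 7.77 and 9.11 log2 units with L-histidinol and 6.63, 7.59, 7.14 and 8.87 without. Its 1.86-fold rise (limma adjusted p = 0.0023) came with overlapping groups, and its level without L-histidinol was highest under both drugs. The GTPase MX1, which blocks viral nucleocapsids, rose 1.73-fold with differences of 1.47, 0.95, 0.67 and 0.07. XAF1, an antagonist of an apoptosis inhibitor, rose 1.57-fold, RSAD2 (viperin) 1.47-fold and the exonuclease ISG20 1.44-fold. GBP2 was the member called lower, by 0.37 log2 units, a call that ended without the osimertinib pair. The MHC class I list had 6 of 14 called higher and none lower, falling to 1 without the osimertinib pair, 2 without the alpelisib pair and 1 with a constant variance prior. Its largest change was 1.31-fold in NLRC5, the transactivator of class I genes, whose call was also lost without the osimertinib pair.

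Of 25 windows of interferon-stimulated genes 17 (68.0%) held an interferon response element core, GAAANNGAA on either strand, against 5.78% of all windows. Outside the amino acid response it was in 6.99% of windows of genes called higher, interferon-stimulated genes included, and in 3.30% of those called lower. The stretches before IFI44L (chr1:78620349-78620408, plus strand) and RSAD2 (chr2:6865780-6865839, plus strand) show it in capitals, 5′ to 3′ in the direction of the gene.
IFI44L: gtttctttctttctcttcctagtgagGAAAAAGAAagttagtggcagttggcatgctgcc
RSAD2: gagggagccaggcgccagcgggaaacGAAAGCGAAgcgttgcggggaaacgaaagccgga
The list was compiled from what its members do in other cells, and the share says nothing of which factor acted here.

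**Figure D3:**
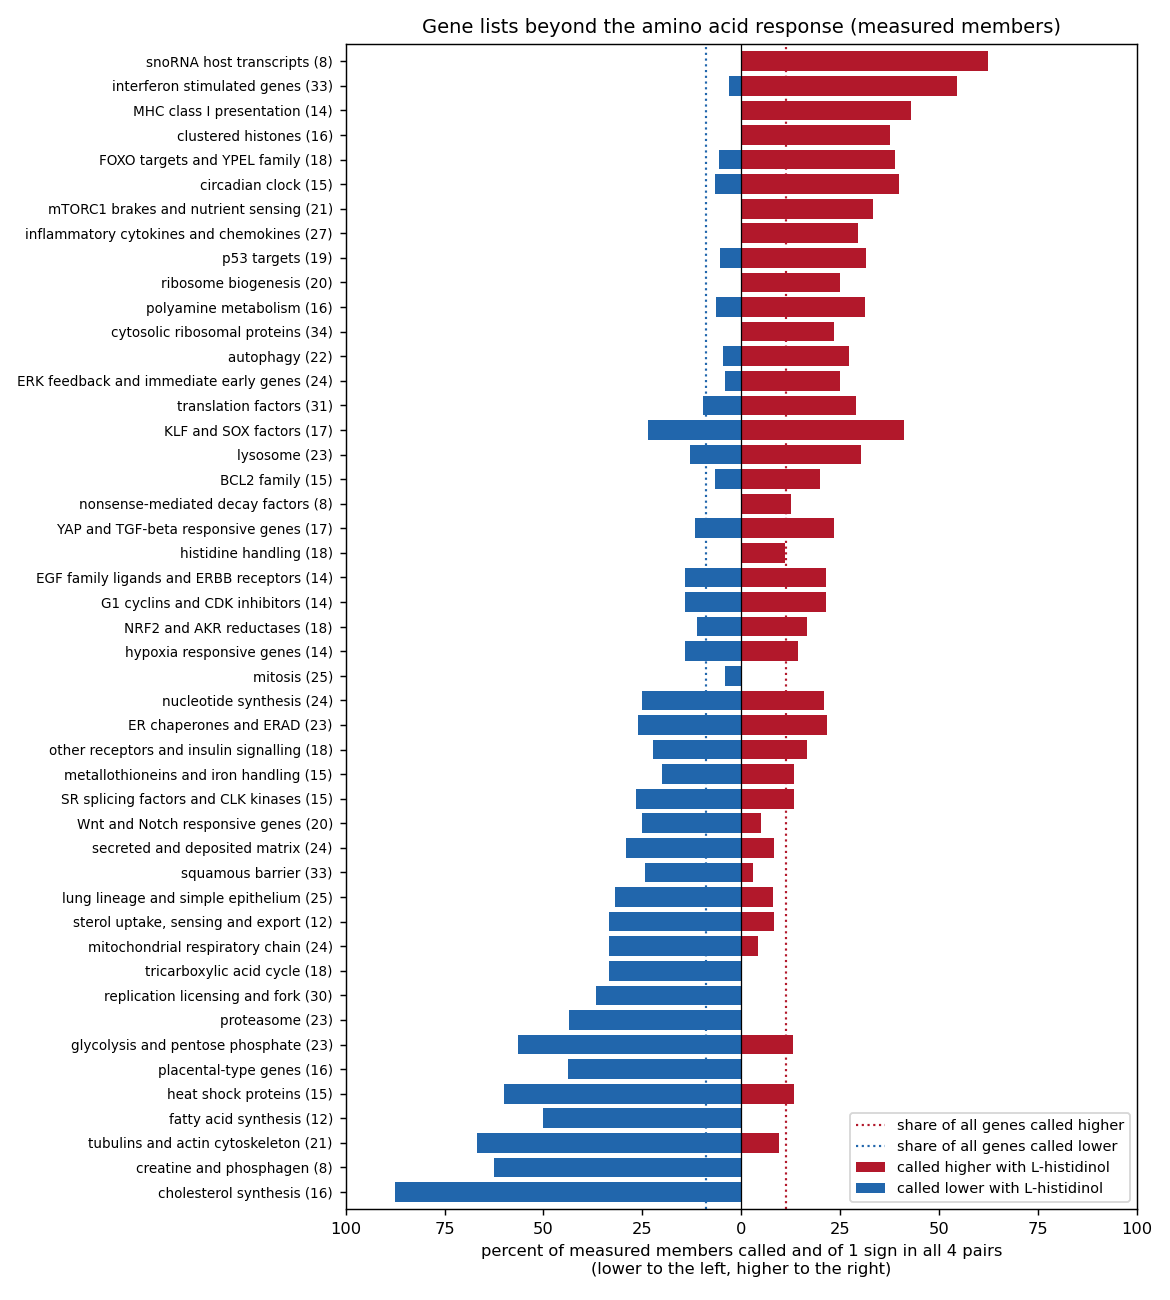
Percent of measured members (number in brackets) called and of 1 sign in all 4 pairs for 47 gene lists beyond the amino acid response, lower to the left and higher to the right; dotted lines mark the shares over all genes, 11.2% higher and 8.85% lower. Cholesterol synthesis lies furthest to the left (14 of 16 lower) and snoRNA host transcripts furthest to the right (5 of 8 higher).

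Several lineage regulators moved, in both directions. GATA6, a zinc finger factor of endoderm and distal lung, read 7.44, 6.87, 7.06 and 6.72 log2 units with L-histidinol and 6.12, 5.34, 5.83 and 5.56 without. The groups did not overlap and the rise was 2.47-fold (limma adjusted p = 3e-06) on the brighter of its 2 probe sets, the other not being called. NKX2-1, the master regulator of lung epithelium, fell. It read 7.0, 8.58, 8.14 and 9.16 with L-histidinol, against 8.01, 9.12, 8.57 and 9.64 without, 0.65 times the level. SFTA3, its divergently transcribed neighbour, fell to 0.58 times and the epithelial factor ELF3 to 0.76 times. The simple keratin KRT18 stood at 12.26, 11.96, 12.42 and 12.20 with L-histidinol and 12.73, 12.68, 12.82 and 12.72 without, a fall to 0.69 times with no overlap. In all, 8 of 25 lung and simple epithelial genes were called lower, 5 on the mean of probe sets, and 2 higher.

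KLF4, a zinc finger factor of epithelial differentiation, read 9.02, 8.28, 8.70 and 8.42 log2 units with L-histidinol and 7.85, 7.18, 7.77 and 7.58 without. It rose 2.01-fold (limma adjusted p = 6.6e-06) with no overlap, and both of its probe sets were called. Its relatives KLF2 and KLF6 fell, to 0.65 and 0.79 times, and KLF11 rose 1.28-fold. Of 17 KLF and SOX factors 7 were called higher and 4 lower, or 3 higher and 3 lower on the mean of probe sets. SOX2, a factor of stem and airway basal cells, fell to 0.60 times, by 0.57 to 1.01 log2 units in each pair. HEY1, a transcriptional repressor downstream of Notch, read 7.84, 8.09, 8.04 and 8.06 with L-histidinol and 7.11, 7.48, 7.29 and 7.47 without, a 1.59-fold rise with no overlap. It was the 1 gene called higher of 20 Wnt and Notch responsive genes, of which 5 were called lower. The receptor NOTCH3 fell to 0.80 times, and HES2 and HES4, repressors of the HES family, to 0.81 and 0.85 times. All 3 of these falls lost their call without the osimertinib pair, and HES4 also without the alpelisib or the vehicle pair. Of 15 clock genes 6 were called higher, among them PER2 at 1.39-fold and NR1D2 at 1.38-fold, and 1 lower. Without the alpelisib pair 2 were called higher.

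Differentiation products were more often lower than higher. The squamous barrier list had 8 of 33 members called lower and 1, CSTA, higher, and 4 lower without the osimertinib or the alpelisib pair. IVL (involucrin, a cornified envelope protein) fell to 0.46 times, S100A9 to 0.66 times and S100A2 to 0.72 times. S100A9 read 5.14, 5.51, 5.29 and 5.02 log2 units with L-histidinol and 5.71, 6.21, 5.81 and 5.61 without. Placental-type genes gave 7 of 16 lower and none higher. Among members kept over all 4 pairs, that count held with any 1 pair left out. The pregnancy-specific glycoproteins made up 5 of the 7. PSG4 read 6.36, 8.52, 7.45 and 9.34 with L-histidinol and 6.84, 9.45, 8.15 and 9.95 without, and fell to 0.62 times. The PSG genes are near-identical, so their probe sets may share signal, and without _x_at probe sets PSG9 lost its call and 3 members of the list were called lower.

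CLIC3, a chloride channel family protein that carries integrins in recycling endosomes, had the largest fall. It read 4.96, 8.31, 6.58 and 9.04 log2 units with L-histidinol and 6.55, 9.77, 7.78 and 9.99 without. The fall to 0.41 times (limma adjusted p = 1e-05) was present in each pair while the drugs themselves moved CLIC3 much further. CRABP2, which delivers retinoic acid to the nucleus, fell by nearly the same amount on every background. It stood at 8.62, 9.50, 8.48 and 8.88 with L-histidinol and 9.68, 10.50, 9.48 and 9.93 without, and fell to 0.49 times (SE 0.04 on the log2 scale, limma adjusted p = 3.3e-07). MALL, a membrane raft protein, read 8.69, 8.93, 9.36 and 9.51 with L-histidinol and 9.87, 10.09, 10.26 and 10.24 without, a fall to 0.50 times with no overlap. Also at about this size were SYTL2 (an effector of secretory vesicle docking, 0.48 times), AGR2 (a disulphide isomerase of mucus secretion, 0.50 times), the water channel AQP3 (0.51 times) and GPRC5A (a retinoic acid-induced lung receptor, 0.53 times).

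**Figure D4:**
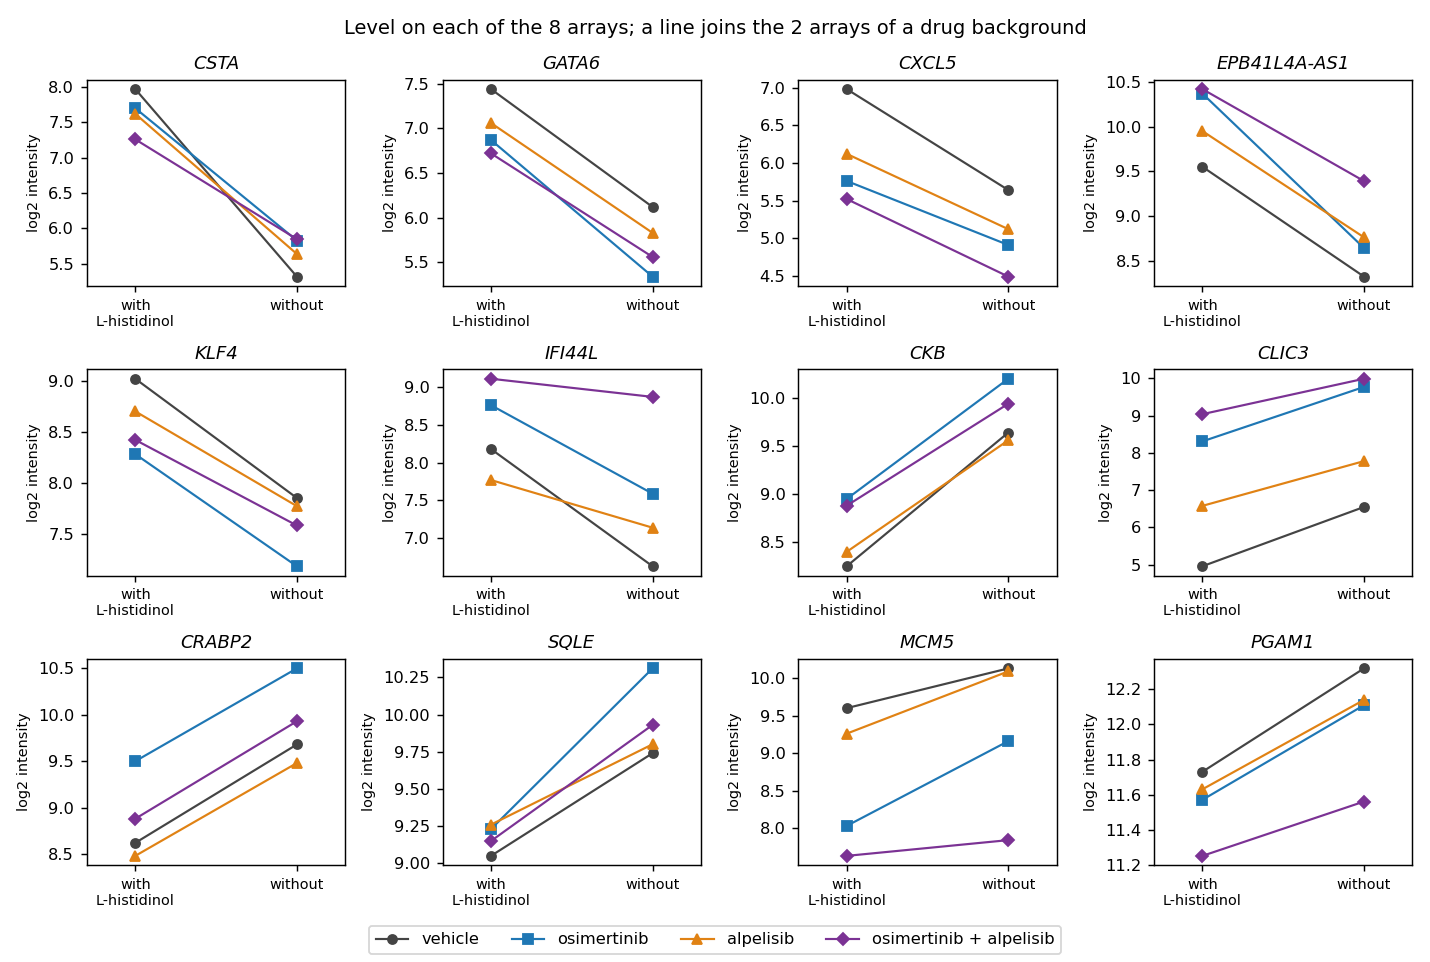
Log2 intensity of 12 genes on each of the 8 arrays, with L-histidinol left and without right; a line joins the 2 arrays of a drug background. CSTA, GATA6, EPB41L4A-AS1, KLF4, CKB and SQLE separate completely, while for CLIC3, IFI44L and MCM5 the drug background spreads the levels more than L-histidinol does.

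Cholesterol synthesis showed the largest share of falls of any list. Of 16 measured enzymes 14 were called lower and none higher, against 8.85% of all genes, with a median of -0.53 log2 units and 10 called lower without the osimertinib pair. SQLE (squalene epoxidase, the first oxygenation step) read 9.05, 9.23, 9.26 and 9.15 log2 units with L-histidinol and 9.74, 10.31, 9.80 and 9.93 without. It fell to 0.59 times (limma adjusted p = 6.4e-05), with no overlap and all 4 probe sets called. ACAT2, the cytosolic thiolase at the entry of the pathway, fell to 0.53 times, DHCR7, the last reductase, to 0.58 times, and MSMO1, which removes methyl groups from lanosterol products, to 0.63 times. Of 12 genes of sterol uptake, sensing and export 4 were called lower and 1 higher, with a median of 0.01 log2 units. INSIG1, which retains the sterol sensor in the endoplasmic reticulum, fell to 0.69 times, STARD4, a sterol carrier, to 0.72 times and SREBF2, the master regulator of the pathway, to 0.76 times, while the sterol exporter ABCA1 rose by 0.26 log2 units, a call lost without the osimertinib pair or the pair with both drugs. Of 12 fatty acid synthesis genes 6 were called lower and none higher, but 2 without the osimertinib pair and 3 without the alpelisib pair or with a constant variance prior. TECR, the last step of very long chain elongation, read 8.93, 9.11, 8.94 and 8.85 with L-histidinol and 9.56, 9.75, 9.59 and 9.37 without, and fell to 0.66 times. SCD, the stearoyl desaturase, fell to 0.78 times. The sterol element TCACNCCAC was in none of the 14 cholesterol windows and in 0.83% of all windows.

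Creatine metabolism had 5 of 8 members called lower and none higher. CKB, the brain-type creatine kinase, read 8.25, 8.95, 8.40 and 8.88 log2 units with L-histidinol and 9.64, 10.20, 9.56 and 9.94 without. It fell to 0.43 times (SE 0.06 on the log2 scale, limma adjusted p = 8.1e-07) with no overlap. GAMT, which makes creatine, fell to 0.73 times and the creatine transporter SLC6A8 to 0.79 times, and 3 members were called lower on the mean of probe sets.

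Of 5 isocitrate dehydrogenase genes 3 were called lower and none higher. IDH3G read 9.51, 9.95, 9.81 and 10.18 log2 units with L-histidinol, against 10.26, 10.55, 10.45 and 10.70 without, and fell to 0.65 times (limma adjusted p = 1.7e-05). IDH2 fell to 0.66 times and IDH3B to 0.71 times, and neither gene's groups overlapped. IDH1 (-0.08 log2 units) and IDH3A (0.21) were not called. The 3 were among the 6 genes called lower among 18 of the tricarboxylic acid cycle, where none was called higher, or 3 genes on the mean of probe sets. Of 24 respiratory chain genes 8 were called lower, 5 on the mean of probe sets, and 1 higher, with SDHC at 0.78 times and CYC1 at 0.81 times. Glycolysis and the pentose phosphate pathway had 13 of 23 lower and 3 higher. The count of falls dropped to 5 without the alpelisib pair, 8 without the osimertinib pair, 6 with a constant variance prior and 7 on the mean of probe sets. PGAM1 (phosphoglycerate mutase) read 11.73, 11.57, 11.63 and 11.25 with L-histidinol and 12.32, 12.11, 12.14 and 11.56 without, and fell to 0.71 times. The entry steps split. The glucose transporter SLC2A3 rose 1.43-fold and the hexokinase HK2 1.25-fold, while HK1 fell to 0.79 times.

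Arginine and polyamine genes were mostly higher where called. ARG2, the mitochondrial arginase, read 6.03, 6.17, 6.08 and 6.66 log2 units with L-histidinol and 5.21, 5.41, 5.52 and 5.88 without, a 1.66-fold rise (limma adjusted p = 0.00011) with no overlap. SMOX, which oxidises spermine, rose 1.38-fold, ODC1, the rate-limiting decarboxylase, 1.26-fold and SAT1, which acetylates polyamines for export, 1.25-fold. OAZ2, an antizyme that restrains ODC1, fell to 0.78 times. Of 16 polyamine genes 5 were called higher and 1 lower. In glutathione synthesis both ligase subunits rose, GCLC 1.35-fold and GCLM 1.21-fold, but the NRF2 targets AKR1B10 and PIR fell, to 0.62 and 0.69 times. The NRF2 list of 18 had 3 called higher (16.7%) and 2 lower (11.1%). Neither share exceeded the 18% and 13.6% of genes with a mean of at least 5 log2 units. The iron exporter SLC40A1 fell to 0.62 times.

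Of 30 licensing and fork genes 11 were called lower with 1 sign in all pairs and none higher, and 6 more were called although a pair disagreed in sign. The list medians by pair were -0.40, -0.59, -0.59 and 0.11 log2 units, and the last of them, under both drugs, was above 0. MCM5, a subunit of the replicative helicase, read 9.60, 8.03, 9.26 and 7.63 with L-histidinol and 10.13, 9.16, 10.09 and 7.84 without. It fell to 0.63 times (limma adjusted p = 0.0018), and its lowest level without L-histidinol, under both drugs, was below 3 of the 4 levels with it. CCNE2 (cyclin E2) fell to 0.60 times, GINS2 (a helicase cofactor) to 0.62 times and FEN1 (the flap endonuclease) to 0.70 times. Mitosis genes had 1 of 25 called lower and none higher, with medians of -0.39, 0.14, -0.24 and 0.28. The E2F element TTTNNCGC was in 13 of 26 windows of replication genes (50.0%) and in 7.46% of all windows. Outside the amino acid response it was in 9.38% of windows of genes called higher and in 7.10% of those called lower. The share in the list says nothing of which factor acted here. The element is shown in capitals, in its reverse orientation, before GINS2 (chr16:85688955-85689014, minus strand) and TYMS (chr18:657588-657647, plus strand).
GINS2: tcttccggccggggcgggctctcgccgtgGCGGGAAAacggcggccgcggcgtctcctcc
TYMS: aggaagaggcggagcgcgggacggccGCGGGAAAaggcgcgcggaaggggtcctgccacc

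Nucleotide synthesis genes were called in both directions, 6 of 24 lower and 5 higher. PRPS1, which makes the ribose donor for nucleotides, read 9.52, 9.39, 9.65 and 9.22 log2 units with L-histidinol and 10.26, 10.31, 10.33 and 9.89 without. It fell to 0.60 times (limma adjusted p = 8.9e-06) with no overlap. The deoxynucleotide enzymes RRM2 and TK1 fell to 0.64 and 0.70 times, both by little under the 2 drugs together (-0.02 and -0.17). GART, a trifunctional enzyme of purine assembly, rose 1.32-fold, and RRM2B, an alternative small subunit of ribonucleotide reductase, 1.18-fold, a call lost without the osimertinib or the alpelisib pair. The count called higher was 2 without the osimertinib pair and 3 with a constant variance prior or without the alpelisib pair.

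Histone transcripts were higher where they were called. Of 16 clustered histone genes 6 were called higher, none lower and 4 higher without the alpelisib pair. Another 2 were called although the pairs differed in sign. The list medians by pair were 0.43, 0.12, 0.33 and 0.01 log2 units, the smallest under both drugs. H2BC21 read 7.97, 8.89, 8.32 and 8.66 log2 units with L-histidinol and 6.85, 8.26, 7.31 and 8.34 without, and rose 1.71-fold. H4C8 rose 2.01-fold, H2BC4 1.65-fold and H2AC6 1.58-fold. H2BC11, outside the list, rose 2.11-fold. These genes have near-identical copies, so a probe set may read several of them. The CDK inhibitor CDKN1C rose 1.33-fold and CCND3 (cyclin D3) fell to 0.77 times.

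Most cytoskeletal genes fell. Of 21 tubulin and actin cytoskeleton genes 14 were called lower and 2 higher, and at least 12 lower with any 1 pair left out. TUBA4A (an alpha tubulin) fell to 0.66 times, the myosin light chain MYL9 to 0.69 times, TUBB6 to 0.72 times and TPM1 (tropomyosin) to 0.73 times. MYL9 read 7.05, 8.40, 7.80 and 8.89 log2 units with L-histidinol and 7.62, 8.99, 8.24 and 9.43 without. ACTB itself was called lower, by 0.12 as deposited but 0.0 after quantile normalisation, beside the shift of its 3'/5' ratio described above. TUBE1, the centriolar epsilon tubulin, rose 2.04-fold on 1 of its 2 probe sets.

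Matrix and secreted genes fell in 7 of 24 cases and rose in 2. MGP, the matrix Gla protein that restrains calcification, fell to 0.41 times and the collagen-binding SPARC to 0.58 times. SPARC read 9.15, 9.98, 9.51 and 10.10 log2 units with L-histidinol and 10.20, 10.87, 10.14 and 10.67 without. COL1A1 fell to 0.76 times and the collagenase MMP13 to 0.62 times. The hyaluronan synthase HAS3 fell to 0.54 times.

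Protein folding and turnover genes were more often called lower than higher. The heat shock list had 9 of 15 called lower and 2 higher, with 4 lower without the osimertinib pair, 5 without the vehicle pair and 4 with a constant variance prior. HSPB8 fell to 0.67 times, HSPB1 to 0.75 times and DNAJB1, a co-chaperone of HSP70, to 0.77 times, while HSPA9, the mitochondrial HSP70, rose 1.31-fold. Of 23 proteasome genes 10 were called lower and none higher, but 6 without the osimertinib pair and 4 with a constant variance prior. PSMD2, a base subunit of the regulatory particle, read 10.83, 10.05, 10.80 and 9.90 log2 units with L-histidinol and 11.43, 10.96, 11.35 and 10.55 without, a fall to 0.62 times (limma adjusted p = 2.7e-05). The endoplasmic reticulum list split into 5 higher (21.7%) and 6 lower (26.1%) of 23. Among all genes with a mean of at least 5 log2 units the shares were 18% and 13.6%. The stress sensor ERN1 (IRE1) rose 1.59-fold and SEL1L, a scaffold of ER-associated degradation, 1.38-fold. The chaperone CRELD2 fell to 0.68 times and SDF2L1 to 0.71 times, although both are known as targets of ER stress.

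Lysosome and autophagy genes rose in part. The protease CTSL read 10.97, 10.67, 10.95 and 10.81 log2 units with L-histidinol and 10.43, 10.26, 10.52 and 10.40 without, a 1.37-fold rise with no overlap, whereas CTSH fell to 0.76 times. In all 7 of 23 lysosome genes were called higher, 3 without the osimertinib pair, and 3 lower. Of 22 autophagy genes 6 were called higher and 1 lower. The cargo receptor SQSTM1 rose 1.42-fold, RB1CC1, the scaffold of the initiating kinase complex, 1.33-fold and the kinase ULK1 1.28-fold. LAMP3, a lysosomal membrane protein, rose 3.02-fold with differences of 2.25, 2.02, 1.34 and 0.79.

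Receptor and survival signalling genes moved in both directions. IRS2, the adaptor of insulin receptors, read 8.39, 8.84, 9.22 and 9.90 log2 units with L-histidinol and 7.41, 7.69, 8.39 and 9.38 without, a 1.83-fold rise (limma adjusted p = 7.8e-05) on top of the higher level under alpelisib. FGFR3 fell to 0.58 times, the receptor ROR1 to 0.70 times and ERBB2 to 0.81 times. ERRFI1, a feedback inhibitor of EGFR, rose 1.38-fold and the ERK phosphatase DUSP5 1.36-fold. PHLDA1, an ERK-responsive gene, rose 1.39-fold with all 6 probe sets called. The AP-1 subunit FOSL1 fell to 0.70 times, the 1 gene called lower beside 6 higher among 24 of ERK feedback and immediate early response. In that list 3 were called higher without the vehicle or the alpelisib pair or with a constant variance prior. TXNIP and ARRDC4, arrestin relatives that curb glucose uptake, rose 1.41-fold and 1.67-fold, and 7 of 18 genes of their list of FOXO targets and YPEL genes were called higher and 1 lower. The count called higher in that list was 3 on the mean of probe sets and 4 with a constant variance prior. Its medians by pair were 0.23, 0.14, 0.21 and -0.005 log2 units. Of 15 BCL2 family genes 3 were called higher and 1 lower. The share called higher was near the 18% of genes with a mean of at least 5 log2 units. The share called lower was below the 13.6% of those genes, so neither count stands out. The called members were all BH3-only activators of cell death. HRK, PMAIP1 (1.52-fold) and BCL2L11 (1.26-fold) rose, and BID fell to 0.83 times with all 3 probe sets called, though not without the osimertinib pair. PMAIP1 read 10.39, 9.83, 10.10 and 10.16 with L-histidinol and 9.68, 9.18, 9.69 and 9.53 without. The death receptor FAS fell to 0.77 times. The p53 target list had 6 of 19 called higher, among them GDF15, also a member of the amino acid response, and ZMAT3 at 1.22-fold, and 1 called lower. Without the alpelisib pair 3 were called higher.

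The L-histidinol differences were widest in the vehicle pair. The standard deviation of the difference over all genes was 0.29 log2 units in the vehicle pair, 0.27 with osimertinib, 0.23 with alpelisib and 0.23 with both. At least 2-fold higher were 93, 52, 36 and 24 genes in those pairs, and at least 2-fold lower 55, 41, 9 and 11. The pairs shared no array, and the differences correlated across genes with Pearson's r between 0.36 and 0.59. The creatine list kept a median of -0.26 to -0.32 on every background and the glycolysis list one of -0.13 to -0.16. Cholesterol synthesis fell most with osimertinib (-0.71), placental-type genes had medians of -0.14, -0.22, -0.34 and -0.47, and ribosome biogenesis ran from -0.14 in vehicle to 0.28 under both drugs. None of these differences between backgrounds could be tested with 1 array a condition.

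**Figure D5:**
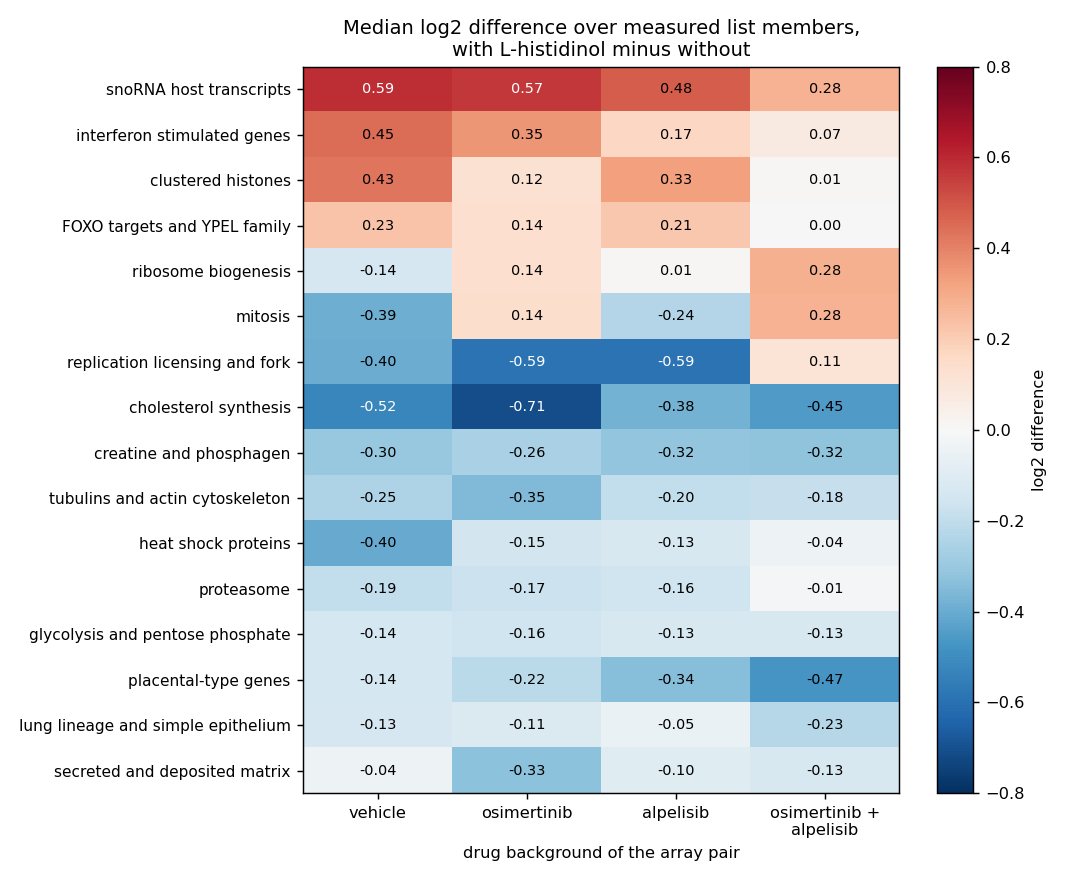
Median log2 difference, with L-histidinol minus without, over the measured members of 16 gene lists in each array pair (columns), red for higher and blue for lower. Cholesterol, creatine and cytoskeleton rows are blue on every background, while the replication row is blue in 3 columns and 0.11 under both drugs.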

How the data were processed

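RNA from NCI-H1975 cells was measured on 8 Affymetrix U133 Plus 2.0 arrays. The authors deposited 1 linear intensity per probe set and array, background-corrected, normalised and summarised with RMA in the R package affy, per the submitters' processing notes; their versions were not given in the sources used here. No scanner files were used, so signal over background per probe is unknown, and precision is set by there being 8 arrays.

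The deposited intensities were converted to log2. Control probe sets (62) were set aside, 41091 probe sets had 1 gene symbol in the platform annotation, 1801 had several and 11721 had none, and neither of the last kinds was used. The probe set with the highest mean stood for its gene, giving 19775 genes. The effect of L-histidinol was fitted with limma 3.58.1 in R 4.3.3 (lmFit, eBayes with a trend), with drug treatment as a factor of 4 levels. P-values were adjusted by the Benjamini-Hochberg method over all genes and called below 0.05. A fold is the fitted log2 difference as a ratio, L-histidinol over none. Summaries used Python 3.11.15 with numpy 2.4.6, pandas 2.3.3 and matplotlib 3.10.9. Nothing in the labels says whether the arrays came from separate cultures, so p-values measure only the spread between these arrays.

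Members were counted in 50 gene lists, 47 of them beyond the amino acid response, with 979 of 1092 members measured. The members and lists were chosen with earlier results of these data known. Named genes were the 25 largest rises and falls, up to 5 called genes of each list, HARS1, ASNS, ATF4 and MYC; others were named after their values were seen. Promoter sequences came from RefSeq (GRCh38.p14). The fit was tested on simulated data with 200 genes changed, where it called 75.0%, 99.5% and 100.0% of those changed by 0.5, 1 and 2 log2 units, and 6.25%, 6.57% and 6.10% of its calls were false. The simulated noise was independent between genes and arrays, drawn from the variance prior of the fit, around additive drug effects. Those shares describe that setting and do not give the share of false calls in the data. Alternatives were another block, another model, other scalings, a filter on dim genes and other choices of probe set. A constant variance prior and leaving out each array pair were also tried. List counts under all of these were taken among genes kept over all 4 pairs. A pair left out had thus still shaped which genes were counted.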

Additional observations from a re-analysis of the deposited data

Results flagged for a closer look

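ETV1, an ETS transcription factor of the ERK pathway, had L-histidinol differences of opposite sign with and without osimertinib. It was found by searching the lists beyond the amino acid response for differences of at least 0.3 log2 units that turned sign with a drug. Its L-histidinol differences were 0.47 log2 units in vehicle and 0.45 with alpelisib, against -0.45 with osimertinib and -0.38 with both drugs. The mean difference with osimertinib minus that without was -0.87 log2 units. ETV1 read 6.02, 4.31, 6.30 and 4.57 log2 units with L-histidinol and 5.55, 4.76, 5.86 and 4.95 without, in the order vehicle, osimertinib, alpelisib and both. The level stood on 1 of 5 probe sets, with an _x_at name, and none of the 5 was called for L-histidinol. Its levels with osimertinib, 4.31 to 4.95, were dim, below the cut of 5 log2 units used elsewhere. The difference between backgrounds was not tested.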

How the results depend on the processing

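With all 2-way terms of L-histidinol and the drugs in the model 6475 genes were called, 3460 higher and 3015 lower. The additive model called 4069 genes, 2256 higher and 1813 lower, whatever their signs by pair. The model with 2-way terms left 1 residual degree of freedom, against 3. Its calls leaned more on the variance prior shared over genes, with 103 prior degrees of freedom against 8.08. Its larger count is therefore no sign that the additive model missed genes. Without the drug term 58 were called, 50 higher and 8 lower. Leaving out 1 array pair gave 2158 to 4049 calls, 1223 to 2193 higher and 935 to 1944 lower. The lowest counts came without the osimertinib pair, and 2404 genes (1342 higher, 1062 lower) were called without the alpelisib pair. The other 6 alternatives gave 2806 to 4237 calls. Direction changed in 2 values: ACTB, lower by 0.12 log2 units as deposited, stood at 0.0 after quantile normalisation, and EGFR, higher by 0.38, stood at -0.003 on the mean of its probe sets. Over 12 alternatives the 177 genes printed gave 2112 values, of which 1905 kept their direction and side of the threshold, 199 lost the call in the same direction (159 of them without the drug term), 6 gained a call and 2 turned direction. The calls gained were EPCAM under 4 alternatives and IDH3A under 2, all 2-way terms (0.21) and without the vehicle pair (0.28). The cause of these changes was not tested. No paired analysis by replicate number was possible because each condition had 1 array; the drug background is the pairing used throughout. Signal over background was not analysed here.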

Other observations

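Gene families read from their symbols, among 11627 genes with a mean of at least 5 log2 units, were drawn up after the values were seen and carry no test. Of those genes 2094 were called higher (18%) and 1587 lower (13.6%). Zinc finger genes with a ZNF symbol gave 66 of 364 higher (18.1%) and 17 lower (4.67%). Of 12 PARP genes, which transfer ADP-ribose, 7 were called higher and 1 lower. PARP8 read 7.37, 7.34, 7.32 and 7.34 log2 units with L-histidinol and 6.47, 6.75, 6.75 and 6.98 without, a 1.52-fold rise (limma adjusted p = 0.00055) with no overlap, although the call ended on the mean of its probe sets. PARP16, the family member of the endoplasmic reticulum membrane, rose 1.32-fold.

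The S100A calcium-binding proteins moved the other way, with 7 of 10 called lower and none higher. S100A4 read 4.96, 6.32, 5.75 and 6.36 log2 units with L-histidinol and 6.09, 7.18, 6.52 and 7.14 without, and fell to 0.54 times (limma adjusted p = 4.6e-05). S100A10, a partner of annexin A2 at the membrane, read at most 12.54 with L-histidinol and at least 12.69 without, a fall to 0.69 times with no overlap. Of 9 annexins 4 were called lower and 1 higher. ANXA6 read 4.79, 5.25, 4.81 and 4.90 with L-histidinol and 5.62, 5.89, 5.53 and 5.73 without, and fell to 0.59 times with no overlap. Of 13 GALNT enzymes, which begin mucin-type O-glycosylation, 6 were called lower and none higher, and GALNT5 fell to 0.60 times.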
